A study of Mus musculus with 9 samples.

Results

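The Kupffer cell marker genes described here are 10 transcripts by which the resident macrophages of the liver are recognised: Marco, Clec4f, Vsig4, Timd4, Cd68, Csf1r, Cd5l, C1qa, C1qb and C1qc. They were chosen by name from textbook knowledge of the cell type, but with earlier results of these data known. All 10 were found among the 23420 genes of the count tables. The RNA came from whole livers of male wild-type mice of the C57BL/6 strain, 3 mice per diet and 1 library per mouse. The mice ate a soy-free AIN-93G diet from 5 weeks of age for 50 days, and livers were taken at 12 weeks. The diets held 2.5 mg of iron per kg (low), 37.5 mg per kg (sufficient) or 1000 mg per kg (high), and nothing else in the labels separated the groups. Mice lacking Hjv, named in the protocol as well, were not analysed here.

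Kupffer cells line the liver sinusoids, where they take up bacteria, immune complexes, dying cells and ageing red blood cells from the portal blood. Iron from digested haem is stored in them as ferritin or returned to the plasma through ferroportin, which makes them a hub of iron recycling. Their survival depends on signalling through the CSF1 receptor, and they are a source of the complement component C1q in the liver.

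Gene-assigned reads numbered from 21994132 in low-iron replicate 1 to 33807087 in sufficient-iron replicate 6. The ribosomal RNA gene Rn45s took 12.5% to 23.8% of them in 7 libraries, but 43.7% in low-iron replicate 1 and 40.5% in high-iron replicate 12. All levels below are in CPM, read counts relative to the size of the library, scaled by TMM, a factor that corrects for such shifts in library composition, and replicates carry the numbers of the sample titles. Of the genes, 13020 passed the filter on low counts, and all 10 markers were among them. Marker reads per library numbered from 1628 in low-iron replicate 1 to 15062 in sufficient-iron replicate 6. The summed CPM of listed hepatocyte genes such as Alb (albumin) was 52263 to 78494 per library, and that of the 10 Kupffer cell markers was 127 to 452. In such bulk tissue, fewer Kupffer cells and less marker RNA per cell cannot be told apart.

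All 10 markers were detected in every library. Per kilobase of exon, sufficient-iron livers had most Cd5l, at 42.9 ± 9.63 CPM per kilobase (SD, n = 3). Cd5l encodes a protein that macrophages secrete into the blood. C1qb followed at 33.7 ± 5.58, C1qa at 30.1 ± 5.97 and Clec4f at 29.9 ± 8.55 CPM per kilobase. Vsig4 had 18.7 ± 6.11 and C1qc 16.9 ± 2.44 CPM per kilobase. Csf1r had 8.01 ± 1.89, Cd68 6.40 ± 1.25, Marco 5.49 ± 2.36 and Timd4 3.62 ± 1.31 CPM per kilobase. The only pair of neighbours in this order whose ranges of mean ± SD did not meet was C1qc and Csf1r. Exon lengths were those of all annotated isoforms joined, 5774 bases for Csf1r and 1040 to 2471 bases for the others. Csf1r shares 873 of its exonic bases with Hmgxb3 on the opposite strand, and whether reads were counted by strand is not given in the sources used here. No other marker overlapped another gene's exons.

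Because the markers varied together across libraries, as described below, the 250 bases before their start sites were set side by side. RefSeq promoter entries (GRCm38.p6) served for 8 of the 10 markers. C1qa had no entry, and Csf1r was left out of the search. The windows are printed 5′ to 3′ on the gene's strand for the receptors Clec4f, Vsig4, Timd4 and Marco, and for C1qb as the complement representative. Capitals mark GGAAGT, the core of the site that ETS factors such as PU.1 recognise, or its reverse complement. The intervals are chr6:83656117-83656366 for Clec4f, chrX:96293439-96293688 for Vsig4, chr4:136886201-136886450 for C1qb and chr1:120505025-120505274 for Marco, all on the minus strand, and chr11:46810549-46810798 on the plus strand for Timd4.
Clec4f: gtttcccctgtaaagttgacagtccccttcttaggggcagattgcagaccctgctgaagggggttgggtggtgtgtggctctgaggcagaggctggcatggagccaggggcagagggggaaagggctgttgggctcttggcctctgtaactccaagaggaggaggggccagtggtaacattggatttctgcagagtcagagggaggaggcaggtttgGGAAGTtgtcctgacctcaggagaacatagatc
Vsig4: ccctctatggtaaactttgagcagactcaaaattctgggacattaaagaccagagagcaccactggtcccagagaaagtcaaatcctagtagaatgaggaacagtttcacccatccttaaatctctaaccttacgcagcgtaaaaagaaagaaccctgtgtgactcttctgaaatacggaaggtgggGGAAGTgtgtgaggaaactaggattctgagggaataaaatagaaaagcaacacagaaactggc
Timd4: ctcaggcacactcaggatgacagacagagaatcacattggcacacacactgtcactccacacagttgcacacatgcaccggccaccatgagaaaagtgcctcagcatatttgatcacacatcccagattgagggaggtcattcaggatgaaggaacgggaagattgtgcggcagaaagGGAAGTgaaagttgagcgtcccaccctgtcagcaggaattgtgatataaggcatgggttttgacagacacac
C1qb: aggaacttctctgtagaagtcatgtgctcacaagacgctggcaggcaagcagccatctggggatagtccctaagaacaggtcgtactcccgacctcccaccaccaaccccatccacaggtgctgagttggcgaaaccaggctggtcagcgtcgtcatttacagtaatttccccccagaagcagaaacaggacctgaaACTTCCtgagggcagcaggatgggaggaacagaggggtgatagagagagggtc
Marco: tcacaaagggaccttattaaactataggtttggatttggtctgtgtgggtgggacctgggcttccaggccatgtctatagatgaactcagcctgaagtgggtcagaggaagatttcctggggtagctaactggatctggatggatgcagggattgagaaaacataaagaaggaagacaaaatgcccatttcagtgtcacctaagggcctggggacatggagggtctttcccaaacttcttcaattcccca

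GGAAGT was present on either strand in 5 of the 8 promoters. In Clec4f, Vsig4 and Timd4 it lay on the gene's strand, starting 33, 63 and 72 bases before the start site. In C1qb and C1qc its reverse complement ACTTCC started 53 and 195 bases before it. The same letters were present in 19.7% of 32851 RefSeq mouse promoters of this length. TGCTGAC, letters that MAF factors recognise, was present in the Timd4 promoter alone, against 3.81% of all promoters. TATAAA was present in 0 of the 8, against 12.4% of all. Such matches describe these windows, and whether any factor binds them was not tested. C1qb, C1qc and C1qa are neighbouring protein-coding genes on chromosome 4.

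The first comparison asked how marker levels in low-iron livers stood against sufficient-iron livers. The point estimate was lower in low-iron livers for 10 of 10 markers, from 0.46 lower on the log2 scale for Clec4f to 2.55 lower for Marco, but none passed the test. The median log2 fold change was -0.68, and that of all genes tested was -0.004. By edgeR's quasi-likelihood test, 0 of 10 markers had an adjusted p under 0.05, as did 0% of all genes. At an unadjusted p under 0.05, 8 of 10 were lower, against 5.41% of all genes. For 7 of 10 markers the low-iron and sufficient-iron libraries did not overlap, against 7.83% of all genes. Low-iron replicate 1 had the lowest value of all 9 libraries for every marker. Without it the median was -0.45, with 7 markers at an unadjusted p under 0.05. That count of 8 also rested on the sufficient-iron livers, of which replicate 2 had the highest values for all markers but Cd68. The count was 1 without sufficient-iron replicate 2 (median -0.51), 5 without replicate 6 and 10 without replicate 10. With each of the 9 libraries left out in turn, 0 markers had an adjusted p under 0.05. DESeq2 gave 9 markers an unadjusted p under 0.05 and no adjusted p to any of them. limma-voom gave 5 an unadjusted p under 0.05 and 0 an adjusted one.

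The second comparison asked the same of high-iron livers. Again the point estimate was lower for 10 of 10 markers than in sufficient-iron livers, with a median log2 fold change of -0.44 against -0.011 for all genes. The values ran from -0.35 for Clec4f to -1.10 for Marco, and none passed the test. edgeR gave 0 of 10 an adjusted p under 0.05, against 0.215% of all genes, and 0 of 10 an unadjusted p under 0.05, against 5.12% of all genes in this direction. For 5 of 10, Timd4, Cd68 and the C1q chains, the groups did not overlap, against 8.85% of all genes. DESeq2 gave 0 markers an adjusted or an unadjusted p under 0.05, and limma-voom 0 an adjusted and 5 an unadjusted one. Without low-iron replicate 1, which is in neither group but shares the fit, 8 of 10 had an unadjusted p under 0.05 and the lowest adjusted p was 0.25, for Cd5l. Without sufficient-iron replicate 2 the median was -0.29, and 0 markers had an unadjusted p under 0.05. Leaving out any other single library gave 0 to 2 markers at an unadjusted p under 0.05. The comparisons with low and with high iron share the sufficient-iron libraries. Of all genes, 36.5% had a negative log2 fold change in both.

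**Figure D1:**
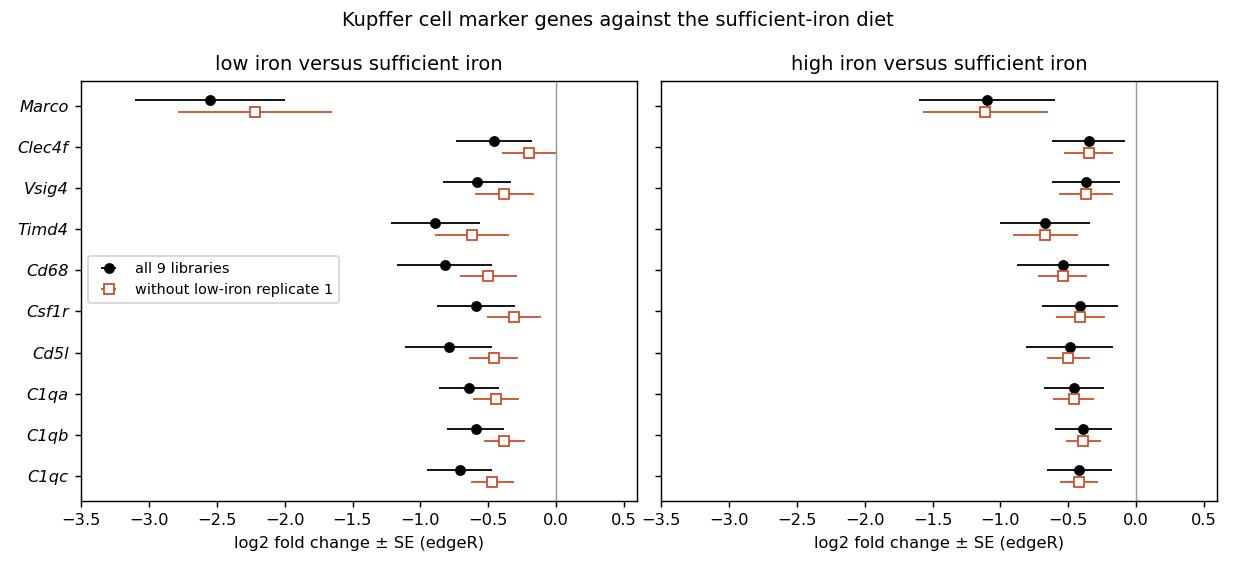
Log2 fold change of each marker gene in low-iron and in high-iron livers against sufficient-iron livers (filled points, all 9 libraries; open squares, without low-iron replicate 1; bars, standard errors of edgeR's fit). The filled points run from -0.35 to -2.55, all points of both kinds lie below 0, and none had an adjusted p under 0.05.

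Between high and low iron, the median log2 fold change of the markers was 0.21, with -0.0063 for all genes. edgeR gave 0 of 10 markers and 0.507% of all genes an adjusted p under 0.05. Marco alone had an unadjusted p under 0.05, in the direction of higher values in high-iron livers, against 4.22% of all genes, and was the only marker whose groups did not overlap, against 7.59%. DESeq2 gave 0 markers an adjusted and 1 an unadjusted p under 0.05, and limma-voom 0 of either. The median was -0.028 without low-iron replicate 1, 0.33 without low-iron replicate 5 and 0.49 without low-iron replicate 9. Marco's unadjusted p was not under 0.05 without low-iron replicate 1, low-iron replicate 5 or high-iron replicate 12.

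A test of any difference among the 3 diets gave 0 of 10 markers an adjusted p under 0.05 by edgeR, against 0.215% of all genes. At an unadjusted p under 0.05 it gave 4 of 10, against 10.7% of all genes. These 4 were Marco, Timd4, C1qa and C1qc. The count was 1 without sufficient-iron replicate 2, high-iron replicate 4 or low-iron replicate 5, 2 with either high-iron replicate 8 or sufficient-iron replicate 6 left out, and 7 without low-iron replicate 1. DESeq2 and limma-voom each gave 1 marker, Marco, an adjusted p under 0.05 in this test, at 0.0465 and 0.0493. Of all 13020 genes, DESeq2 gave 413 and limma-voom 230 an adjusted p under 0.05 in it.

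**Figure D2:**
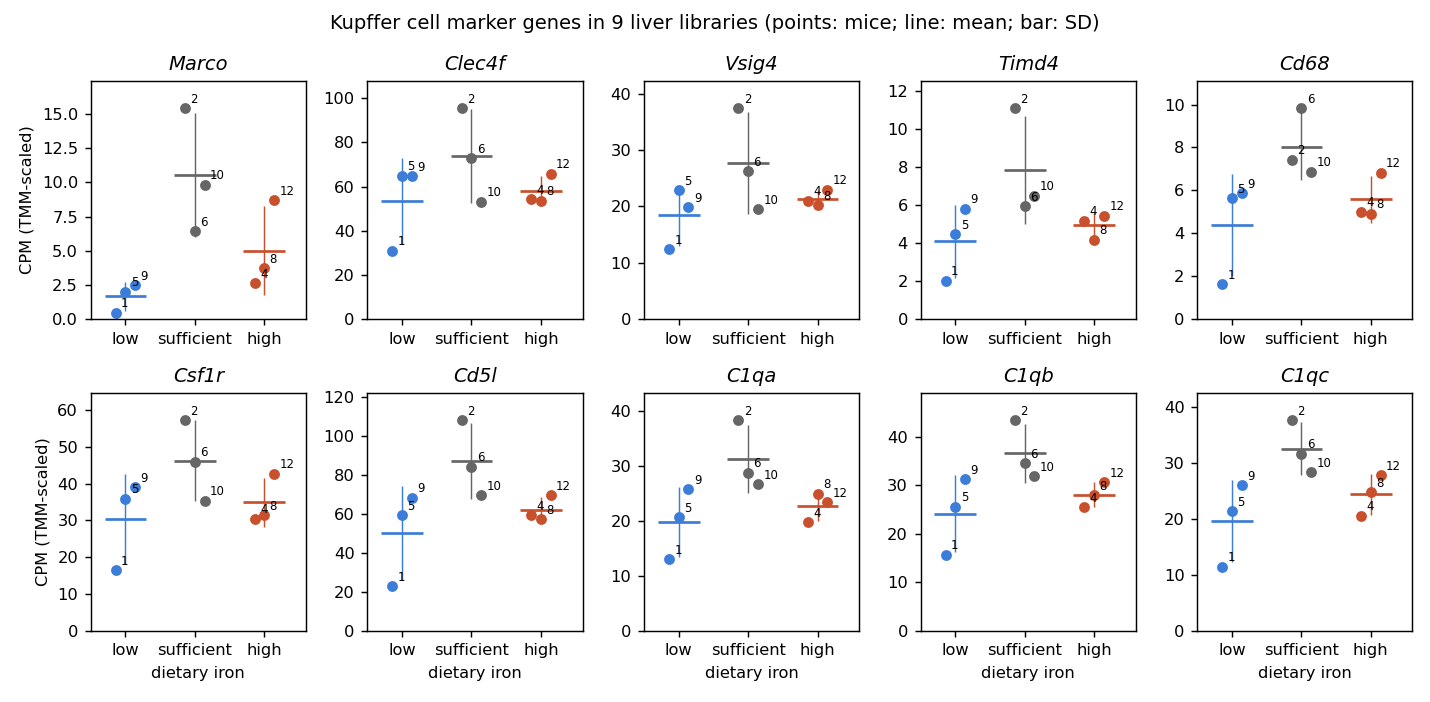
Level of each marker gene in TMM-scaled CPM in low-, sufficient- and high-iron livers, with 1 point per mouse labelled by its title number, a horizontal line at the mean and a bar of 1 SD. Low-iron replicate 1 is the lowest point in every panel, and sufficient-iron replicate 2 the highest in all but Cd68.

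The receptors for foreign and altered particles came first. Marco, a class A scavenger receptor that binds bacteria and particles, stood at 0.468, 2.01 and 2.50 CPM in low-iron replicates 1, 5 and 9. It stood at 15.4, 6.44 and 9.82 CPM in sufficient-iron replicates 2, 6 and 10, and at 2.64, 3.71 and 8.70 CPM in high-iron replicates 4, 8 and 12. All low-iron values lay below all values of both other diets, and high-iron replicate 12 lay within the sufficient-iron range. The means were 1.66 ± 1.06, 10.6 ± 4.55 and 5.02 ± 3.24 CPM (SD, n = 3 each). The log2 fold change was -2.55 ± 0.55 (SE) in low iron against sufficient, with an edgeR p of 0.000777 and an adjusted p of 0.446. It was -1.10 ± 0.50 in high iron against sufficient (edgeR adjusted p = 0.54) and 1.45 ± 0.55 in high against low iron (edgeR adjusted p = 0.4). The 3-diet test gave Marco an adjusted p of 0.152 by edgeR and 0.0465 by DESeq2. The lowest value rested on 6 reads, whose exact 95% Poisson interval, for counting error alone, is 0.172 to 1.02 CPM. Without high-iron replicate 12, Marco's log2 fold change in high iron against sufficient was -1.72, and without sufficient-iron replicate 2 it was -0.72. Against low iron it was 0.84 without high-iron replicate 12.

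Clec4f, a C-type lectin that in mice is largely restricted to Kupffer cells, had 31.0, 65.0 and 64.8 CPM in low-iron replicates 1, 5 and 9. It had 95.4, 72.9 and 53.2 CPM in sufficient-iron replicates 2, 6 and 10, and 54.4, 53.7 and 65.8 CPM in high-iron replicates 4, 8 and 12. All 3 diets overlapped, and Clec4f had the smallest differences of the 10 markers. Its log2 fold change was -0.46 ± 0.28 in low iron (edgeR adjusted p = 0.51) and -0.35 ± 0.27 in high iron (edgeR adjusted p = 0.69) against sufficient. Without sufficient-iron replicate 2 these were -0.23 and -0.12, and without sufficient-iron replicate 10 they were -0.65 and -0.54. Without low-iron replicate 1 the low-iron value was -0.20.

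Vsig4, the complement receptor of the immunoglobulin superfamily that captures C3b-coated particles, had 12.4, 22.9 and 19.9 CPM in the low-iron livers. It had 37.4, 26.3 and 19.5 CPM in the sufficient-iron livers and 21.0, 20.2 and 23.0 CPM in the high-iron livers. The low-iron and high-iron ranges both reached above sufficient-iron replicate 10. The log2 fold change in low iron against sufficient was -0.58 ± 0.25, with an edgeR adjusted p of 0.446. In high iron against sufficient it was -0.37 ± 0.25, with an edgeR adjusted p of 0.652. Without sufficient-iron replicate 2 these were -0.30 and -0.10, without sufficient-iron replicate 10 the high-iron value was -0.58, and without low-iron replicate 1 the low-iron value was -0.38.

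Timd4, a phosphatidylserine receptor for dying cells that marks long-lived resident macrophages, had 2.03, 4.46 and 5.81 CPM in the low-iron livers. It had 11.1, 5.96 and 6.51 CPM in the sufficient-iron livers and 5.18, 4.18 and 5.45 CPM in the high-iron livers. The sufficient-iron values lay above those of both other diets, with sufficient-iron replicate 6 close above low-iron replicate 9. Timd4 had a log2 fold change of -0.89 ± 0.33 in low iron (edgeR adjusted p = 0.446) and -0.67 ± 0.33 in high iron (edgeR adjusted p = 0.564) against sufficient. Cd68, a glycoprotein of phagocyte lysosomes, had 1.64, 5.63 and 5.88 CPM in the low-iron livers. It had 7.43, 9.82 and 6.87 CPM in the sufficient-iron livers and 5.01, 4.91 and 6.83 CPM in the high-iron livers. Here too the sufficient-iron values were above the others, with high-iron replicate 12 close below sufficient-iron replicate 10. Its log2 fold change was -0.82 ± 0.35 in low iron (edgeR adjusted p = 0.446) and -0.54 ± 0.34 in high iron (edgeR adjusted p = 0.642).

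Csf1r encodes the receptor for CSF1 and interleukin-34, on which Kupffer cells depend. It had 16.5, 35.9 and 39.1 CPM in the low-iron livers, 57.3, 46.0 and 35.4 CPM in the sufficient-iron livers, and 30.5, 31.5 and 42.7 CPM in the high-iron livers. The 3 ranges overlapped. The log2 fold change was -0.59 ± 0.29 in low iron (edgeR adjusted p = 0.455) and -0.41 ± 0.28 in high iron (edgeR adjusted p = 0.662) against sufficient.

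Of the secreted products, Cd5l, an apoptosis inhibitor of macrophages, had 22.7, 59.3 and 68.3 CPM in the low-iron livers. It had 108, 84.0 and 69.5 CPM in the sufficient-iron livers and 59.1, 57.2 and 69.6 CPM in the high-iron livers. The low-iron values lay below the sufficient-iron values, and high-iron replicate 12 was level with sufficient-iron replicate 10. The log2 fold change was -0.79 ± 0.32 in low iron (edgeR adjusted p = 0.446) and -0.49 ± 0.32 in high iron (edgeR adjusted p = 0.648).

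The A, B and C chains of C1q join into the recognition molecule of the classical complement pathway. C1qa had 13.0, 20.7 and 25.8 CPM in low-iron, 38.4, 28.8 and 26.7 CPM in sufficient-iron and 19.8, 25.0 and 23.4 CPM in high-iron livers. C1qb had 15.7, 25.6 and 31.3 CPM in low-iron, 43.5, 34.6 and 31.9 CPM in sufficient-iron and 25.5, 28.0 and 30.7 CPM in high-iron livers. C1qc had 11.5, 21.4 and 26.0 CPM in low-iron, 37.7, 31.7 and 28.4 CPM in sufficient-iron and 20.6, 24.8 and 27.8 CPM in high-iron livers. For all 3 chains every sufficient-iron library was above every library of the other diets. The log2 fold changes in low iron were -0.64 ± 0.22 for C1qa, -0.59 ± 0.21 for C1qb and -0.71 ± 0.24 for C1qc, each with an edgeR adjusted p of 0.446. In high iron they were -0.46 ± 0.22, -0.39 ± 0.21 and -0.42 ± 0.24, with edgeR adjusted p of 0.561, 0.602 and 0.609.

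Single libraries moved several of these values by over 1.5 times. Without low-iron replicate 1 the low-iron log2 fold change was -0.50 for Cd68, -0.31 for Csf1r, -0.46 for Cd5l, -0.38 for C1qb and -0.47 for C1qc. Without sufficient-iron replicate 2 the high-iron value was -0.34 for Timd4, -0.23 for Csf1r, -0.31 for Cd5l, -0.29 for C1qa and -0.25 for C1qb, and Timd4's low-iron value was -0.56. Every marker kept a negative value against sufficient iron with each library left out in turn.

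The markers varied together from liver to liver. Over the 9 libraries, Pearson's r between the log2 CPM of 2 markers had a median of 0.929 over the 45 pairs, from 0.792 to 0.992. After each diet's mean was subtracted, the median was 0.894 and the range 0.692 to 0.988. Pairs of C1q chains had r of 0.975 to 0.992 over the 9 libraries. Low-iron replicate 1, the lowest library for every marker, is among the 9, and its part in these r was not tested. These values describe libraries that share scaling and composition, and the counts of markers above are therefore not counts of independent genes. The summed marker CPM was 127, 263 and 289 in the low-iron livers, 452, 347 and 288 in the sufficient-iron livers and 244, 253 and 304 in the high-iron livers. The sums had means of 226 ± 87.1, 362 ± 83.2 and 267 ± 32.5 CPM, and the ranges of the diets overlapped. Before TMM scaling, the sums as plain CPM were 74, 250 and 305, then 476, 446 and 339, then 282, 301 and 237. On that scale the sufficient-iron livers lay above the other 6. The 2 libraries with the highest Rn45s share, low-iron replicate 1 and high-iron replicate 12, had the 2 lowest unscaled sums, and the part of library composition in these values was not tested. After TMM scaling high-iron replicate 12 had the highest sum of its diet, while low-iron replicate 1 kept the lowest of all.

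Marco varied more between livers than the others did. Its log2 CPM minus the mean of the other 9 markers was -4.44, -3.40 and -3.25 in the low-iron livers. It was -1.24, -2.16 and -1.30 in the sufficient-iron livers and -2.93, -2.48 and -1.50 in the high-iron livers. The low-iron livers did not overlap either other diet on this scale, which cancels the scaling of the library. Marco made up 0.369% to 0.864% of the summed marker CPM in low iron, 1.86% to 3.42% in sufficient iron and 1.08% to 2.86% in high iron. For the other 9 markers the reference was the mean of the other 8 without Marco. Clec4f was 1.75 ± 0.11 above it in low iron, 1.45 ± 0.15 in sufficient iron and 1.58 ± 0.033 in high iron, the reverse of Marco's order of diets. Csf1r was 0.81 ± 0.028, 0.70 ± 0.071 and 0.75 ± 0.12 above it, and Vsig4 and C1qb also had this reverse order. Timd4, Cd68 and Cd5l had Marco's order of diets, and C1qa had neither. Relative to the reference, Timd4 was at -2.48 ± 0.17, -2.20 ± 0.32 and -2.42 ± 0.20. Cd68 was at -2.46 ± 0.43, -2.12 ± 0.43 and -2.23 ± 0.13, and Cd5l at 1.56 ± 0.22, 1.74 ± 0.024 and 1.69 ± 0.048. In low-iron replicates 1, 5 and 9, Cd68 was at -2.96, -2.16 and -2.27, and Cd5l at 1.31, 1.66 and 1.71. Vsig4 was at 0.33, 0.12 and -0.29 in these livers, and C1qb at 0.71, 0.30 and 0.44. The part of low-iron replicate 1 in these orders of diets was not tested. C1qc, at 0.12 ± 0.11, 0.16 ± 0.11 and 0.17 ± 0.13, kept its place among the markers. These relative levels were looked at after the values were known and carry no test.

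**Figure D3:**
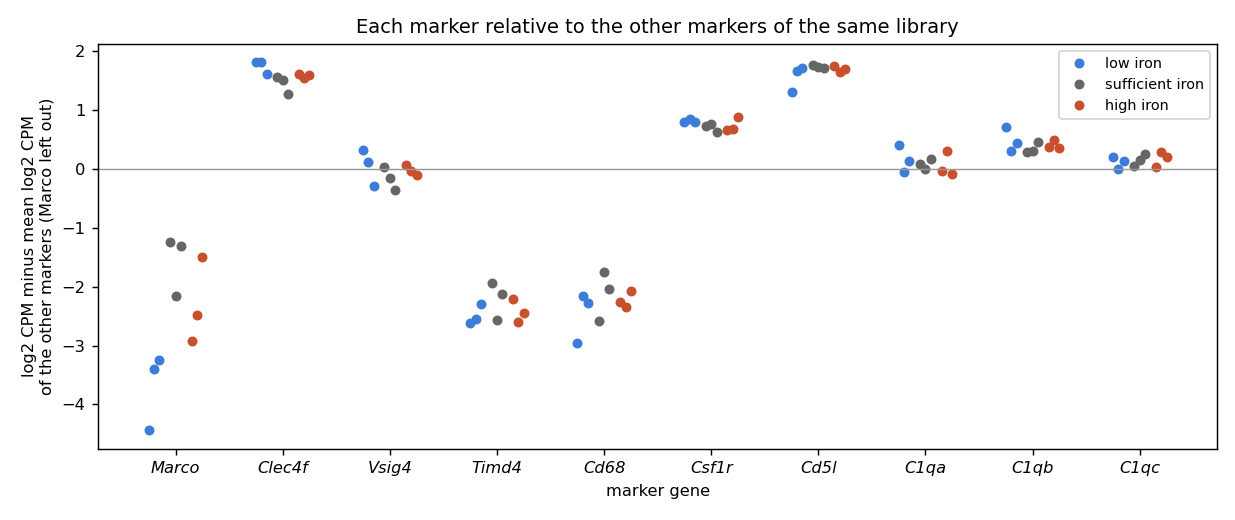
Log2 CPM of each marker minus the mean log2 CPM of the other markers in the same library, with Marco left out of the reference; points are the 3 mice of each diet. Marco runs from -4.44 to -3.25 in low iron, below its values in both other diets, while the diets lie close together for the C1q chains.

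The genes whose log2 CPM followed the markers most closely over the 9 libraries, among 11510 genes of at least 1 CPM, were ranked by r with the mean standardised marker level. Sdc3, a syndecan, led with 0.984, followed by Ptgs1 (cyclooxygenase) with 0.977 and Emr1, the file's symbol for the macrophage antigen gene Adgre1, with 0.976. Adamdec1, Emr4, Tmem26, Nfam1, Itgal, Fpr1 and Clec12a followed, with r from 0.974 to 0.96. Of the 11510 genes, 111 had an r above 0.9 and the median of all was 0.00957. After subtraction of diet means the first was again Sdc3, at 0.992, followed by Cd163, the haemoglobin scavenger receptor, at 0.99. Adcy4, Zfp667, Clec4a3, Pex7, Lilra5, Cep57l1 and Emr1 were also among the first 10, at 0.987 to 0.972. Sdc3 and Emr1 were in both groups of 10. Both rankings include low-iron replicate 1, the lowest library for every marker, and its part in them was not tested. Cd163 differed from the markers in its diet means, with log2 fold changes of -0.044 in low and 0.083 in high iron against sufficient. Its low-iron replicate 1 had 3.12 CPM, against 7.59 to 13.0 CPM in the other 8 libraries.

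Other genes of the cell type were then read beside the markers, all by edgeR and with adjusted p over all 13020 genes. Of 9 further Kupffer cell identity genes, 0 had an adjusted p under 0.05 in either comparison with sufficient iron. At an unadjusted p under 0.05, 3 and 0 were lower in low and high iron, against 5.41% and 5.12% of all genes. Of the 9, 8 and 7 had negative values, with medians of -0.50 in low and -0.35 in high iron. Nr1h3, which encodes the liver X receptor alpha, had 0.067 ± 0.12 and 0.081 ± 0.12, and Cd163 was above 0 in high iron. Unlike the markers, Nr1h3 was not lowest in low-iron replicate 1, with 79.5 CPM there and 64.1 to 84.6 CPM in the other libraries. Axl, a receptor kinase for the clearance of dying cells, had log2 fold changes of -0.76 ± 0.26 and -0.35 ± 0.26. Spic, a factor tied to red pulp and other iron-handling macrophages, had -0.84 ± 0.34 and -0.69 ± 0.33. Cfp, or properdin, had -0.61 ± 0.26 and -0.44 ± 0.26, and Clec1b -0.46 ± 0.22 and -0.11 ± 0.21. Of 16 general macrophage and phagocyte genes, 16 and 15 had negative values, with medians of -0.73 and -0.55. None had an adjusted p under 0.05, and 11 and 2 were lower at an unadjusted p under 0.05, against the same 5.41% and 5.12%. Mpeg1, the perforin-like protein of phagocytes, had 69.3 ± 18.5, 111 ± 17.6 and 63.8 ± 10.7 CPM in low, sufficient and high iron. Its adjusted p was 0.446 for low iron and 0.186 for high iron against sufficient. Lyz2, macrophage lysozyme, had 23.0 ± 8.10, 47.9 ± 18.4 and 31.9 ± 1.66 CPM. The adaptor Tyrobp had log2 fold changes of -0.73 ± 0.20 and -0.18 ± 0.19, and the scavenger receptor Msr1 -0.79 ± 0.24 and -0.53 ± 0.24.

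Among 8 ligands of the CSF1 receptor and macrophage transcription factors, 0 had an adjusted p under 0.05. At an unadjusted p under 0.05, 4 and 0 were lower in low and high iron, against 5.41% and 5.12% of all genes. The medians were -0.53 and -0.18. Id3, a regulator of Kupffer cell identity that other liver cells also express, had 13.4 ± 4.66, 35.5 ± 15.0 and 43.3 ± 16.2 CPM. Csf1 had log2 fold changes of -0.67 ± 0.22 and -0.29 ± 0.21, and Il34 -0.0029 ± 0.43 and 0.32 ± 0.40. Irf8 had -0.73 ± 0.22 and -0.29 ± 0.21, and Sfpi1, which encodes PU.1, -0.72 ± 0.26 and -0.40 ± 0.26.

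The complement partners of C1q, which hepatocytes chiefly make, had another order of diets. Of 9 listed, 7 were tested, with medians of 0.11 in low and -0.22 in high iron against sufficient. None had an adjusted p under 0.05 in either, with 1 higher in low iron and 2 lower in high iron at an unadjusted p under 0.05. The shares of all genes were 5.79% higher in low iron and 5.12% lower in high iron. C4b had 515 ± 23.6, 477 ± 29.0 and 350 ± 34.2 CPM in low, sufficient and high iron, and C3 had 2896 ± 663, 2634 ± 673 and 1779 ± 73.2 CPM. The protease C1s and the C1 inhibitor gene Serping1 had log2 fold changes of -0.21 ± 0.10 and -0.22 ± 0.12 in high iron. The low-iron livers, with the lowest C1q chain means, had the highest means of these 4 partners, but by little. In low iron against sufficient the log2 fold changes were 0.11 ± 0.11 for C4b and 0.14 ± 0.21 for C3. They were 0.11 ± 0.10 for C1s and 0.093 ± 0.12 for Serping1, and the groups overlapped for all 4.

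Of 9 genes of iron recycling, 0 had an adjusted p under 0.05, and the medians were -0.20 in low and -0.074 in high iron against sufficient. At an unadjusted p under 0.05, 3 were lower and 1 higher in low iron, and 2 were higher in high iron. Of all genes, 5.41% were lower and 5.79% higher in low iron, and 4.16% were higher in high iron, at that p. Slc48a1, the haem exporter of the phagolysosome, had 35.6 ± 5.80, 36.7 ± 2.47 and 57.5 ± 7.77 CPM, with a log2 fold change of 0.65 ± 0.14 in high iron and an adjusted p of 0.121. Blvrb, a biliverdin reductase, had values of 0.53 ± 0.23 in low and 0.71 ± 0.23 in high iron. Slc11a1, the phagosomal metal transporter, had -0.73 ± 0.20 and -0.14 ± 0.20, and Ncoa4, the ferritin autophagy receptor, -0.39 ± 0.15 and -0.074 ± 0.15. Slc40a1, which encodes ferroportin, had -0.23 ± 0.21 and -0.12 ± 0.21, and Hmox1, haem oxygenase, -0.40 ± 0.17 and -0.17 ± 0.17. Many of these genes are also expressed by hepatocytes.

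Markers of other cells had values partly in the same direction as the Kupffer cell markers. Of 9 tested monocyte and neutrophil markers, all 9 had negative values in both comparisons, with medians of -0.84 in low and -0.57 in high iron. Their summed CPM was 11.4 to 17.8 in low, 18.8 to 30.4 in sufficient and 15.0 to 22.0 in high iron, and only Chi3l3 was at 0 in any library. Ccr2, the chemokine receptor of recruited monocytes, had 1.45 ± 0.455, 3.60 ± 2.15 and 2.13 ± 0.732 CPM. Sufficient-iron replicate 6 had 5.98 CPM of it, and replicates 2 and 10 had 1.78 and 3.03. Dendritic cell markers (7 tested) summed to 3.67 to 6.20, 6.37 to 9.59 and 5.41 to 7.74 CPM, with medians of -0.70 and -0.16, and Flt3 and Siglech were at 0 in at least 1 library. Itgax, which macrophages can also express, had -2.03 ± 0.65 and -1.21 ± 0.59, with 2, 4 and 25 reads in the low-iron livers. Its sufficient-iron values were 0.947, 3.20 and 1.10 CPM in replicates 2, 6 and 10. The 12 sinusoidal endothelial markers had medians of -0.32 and -0.11 and summed to 250 to 414, 380 to 446 and 318 to 481 CPM. The 9 stellate cell markers also had medians of -0.32 and -0.10, with sums of 274 to 376, 292 to 562 and 317 to 426 CPM. The 6 cholangiocyte markers had medians of -0.66 and 0.16, with sums of 28.2 to 37.2, 40.6 to 74.1 and 33.4 to 72.2 CPM. The 10 T, NK and B cell markers had medians of -0.022 and -0.12, with sums of 4.46 to 7.43, 5.87 to 9.21 and 4.95 to 7.69 CPM. Hepatocyte markers, 9 of 10 tested, had medians of 0.17 and -0.046. No gene of these lists had an adjusted p under 0.05 by edgeR in either comparison with sufficient iron. At an unadjusted p under 0.05, 3 monocyte and neutrophil, 1 dendritic, 1 endothelial and 3 cholangiocyte markers were lower in low iron and 1 hepatocyte marker was higher. In high iron, 1 monocyte and neutrophil marker and 1 hepatocyte marker were lower. The shares of all genes at that p were 5.41% lower and 5.79% higher in low iron, and 5.12% lower in high iron. The part of other cell types in the marker values was not tested.

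Low-iron replicate 1 was low in several of these lists as well. Its median log2 CPM relative to the mean of the 9 libraries was -1.09 for the Kupffer cell markers, -1.0 for the further identity genes, -0.85 for the general macrophage genes and -0.65 for the endothelial markers. It was -0.79 for cholangiocyte, -0.72 for monocyte and neutrophil, -0.69 for dendritic cell and -0.35 for stellate cell markers. For the CSF1 receptor ligands and transcription factors it was -0.48. It was -0.0071 for T, NK and B cell markers, 0.012 for iron recycling genes, 0.13 for complement partners and 0.14 for hepatocyte markers. Among erythroid genes only Alas2, the haem synthesis enzyme of red cell precursors, was tested. By edgeR it was the only list gene with an adjusted p under 0.05. Its log2 fold change was -1.06 ± 0.17 in high iron against sufficient (edgeR adjusted p = 0.0479). In DESeq2's 3-diet test, Mpeg1, Id3, C1s, C4b and Slc48a1 also had an adjusted p under 0.05, from 9.84e-05 for C4b to 0.0112 for C1s. So did 413 of all 13020 genes in that test. Alas2 had 102 ± 20.9, 70.9 ± 9.75 and 34.1 ± 5.33 CPM, an order of diets different from that of the Kupffer cell markers.

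**Figure D4:**
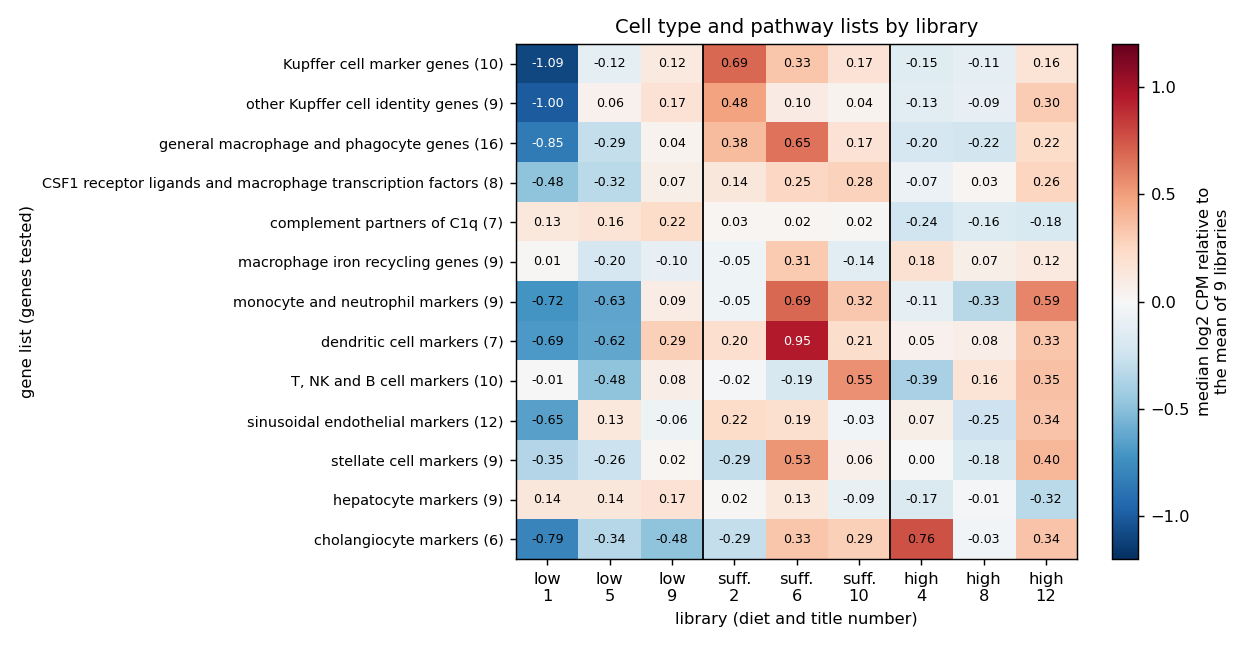
Median log2 CPM of each gene list (rows, with the number of genes tested) in each of the 9 libraries (columns, by diet and title number) relative to the mean of all 9, as colour and as a number. Kupffer cell markers and macrophage genes are lowest in low-iron replicate 1, at -1.09 and -0.85, and positive in all sufficient-iron livers.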

How the data were processed

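Whole-liver RNA of 9 mice was sequenced as 1 library each, prepared with TruSeq RNA kits for Illumina HiSeq, per the labels' protocols. The deposited files hold raw read counts per gene with 5 category rows, which were left out: reads in no feature were 13.4% to 25.9% of uniquely placed reads and ambiguous reads 0.477% to 0.917%. FastQC is listed in the submitters' processing notes, as are mm9 and mm10, without saying which served for alignment. No source used here gives the aligner or strand setting. Depth was 21994132 to 33807087 gene reads per library.

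Counts were tested with edgeR 4.0.16 in R 4.3.3 (filterByExpr, TMM, robust quasi-likelihood fit of diet over all 9 libraries), with Benjamini-Hochberg adjustment over 13020 genes and a threshold of 0.05. DESeq2 1.42.0, limma-voom (limma 3.58.1), other filters and scalings and left-out libraries were alternatives. The pipeline was tested on simulated counts. Printed are all 10 markers, up to 4 genes per list with the lowest p of the 3-diet test, the 10 genes most like the markers by each measure (1 of them is not reported here), and the list genes Il34, Nr1h3, Slc40a1 and Hmox1, named after their values were seen. The markers and lists were chosen with earlier results of these data known. Ly6g and Hbb-bt were not matched. Exon lengths came from GENCODE M21 and promoters and gene neighbours from RefSeq (GRCm38.p6).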

Additional observations from a re-analysis of the deposited data

How the results depend on the processing

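Every marker kept a negative log2 fold change in all 20 alternatives that refitted high against sufficient iron (-1.73 to -0.10) and low against sufficient iron (-2.92 to -0.18). Adjusted p stayed above 0.05 in all of them, except that DESeq2 gave the markers no adjusted p in low against sufficient iron. The alternatives that left out 2 libraries or added consecutive title numbers as a term were chosen after seeing the data. In high against low iron, 31 of 200 marker values reversed and none passed the threshold. With limma-voom these were Clec4f at -0.083, Timd4 -0.021, Cd68 -0.016, Csf1r -0.087, C1qa -0.085, C1qb -0.04 and C1qc -0.007. Without low-iron replicate 1 and high-iron replicate 12 they were Clec4f -0.27, Vsig4 -0.058, Timd4 -0.14, Cd68 -0.22, Csf1r -0.28, Cd5l -0.14, C1qa -0.057, C1qb -0.10 and C1qc -0.069. Without low-iron replicate 1 and sufficient-iron replicate 6 they were Clec4f -0.17, Vsig4 -0.0013, Timd4 -0.066, Cd68 -0.058, Csf1r -0.11, Cd5l -0.045, C1qa -0.031 and C1qb -0.023. With single libraries left out the range was -0.16 to 0.27 for Clec4f, -0.055 to 0.55 for Timd4, -0.047 to 0.54 for Cd68, -0.10 to 0.40 for Csf1r, -0.035 to 0.59 for Cd5l, -0.021 to 0.42 for C1qa and -0.013 to 0.43 for C1qb, with the reversals without low-iron replicate 1. The 3-diet test called 1 marker, Marco, with DESeq2 and 1 with limma-voom.

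Counts of genes called over the whole table moved more. For high against sufficient iron, 28 became 66 at an adjusted p under 0.1, 45 with no filter, 218 with DESeq2, 92 with limma-voom, 17 without low-iron replicate 1 and high-iron replicate 12, 63 without low-iron replicate 1 and sufficient-iron replicate 6, and 0 to 56 with single libraries left out. For low against sufficient iron, 0 became 105 with DESeq2, 2 with limma-voom, 1 without either of those pairs, and 0 to 1 with single libraries left out. For high against low iron, 66 became 168 at 0.1, 365 with DESeq2, 378 with limma-voom, 41 with the title-number term, 31 and 288 without those pairs in that order, and 0 to 112 with single libraries left out. For the 3-diet test, 28 became 96 at 0.1, 52 with no filter, 413 with DESeq2, 230 with limma-voom, 15 and 192 without those pairs, and 0 to 68 with single libraries left out. The cause was not tested. The diets share no title numbers, so no replicate number pairs the livers, and the labels do not call consecutive numbers a batch. With 3 livers per diet, the p-values rest on few animals, and Marco's lowest value on 6 reads.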
